A study of Mus musculus with 8 samples.

Results

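Rad51b and Nsmce2 are the only genes among 166 of DNA repair and chromosome maintenance examined here that held capped transcription starts listed for old liver and others listed for young liver. The starts lie inside the genes, away from annotated promoters, and are called cryptic in the deposited lists. The genes were chosen by those lists, that is, on measured values, and every interval whose centre lay in the body of either gene was taken, whatever its strand. This gave 14 of 1627 intervals in all 4 lists. The larger old list contributed 8 of its 976 intervals, the larger young list 5 of 425, the stricter old list 1 of 216 and the stricter young list 0 of 10. Membership, counts and folds therefore describe the choice, and no test was made on them.

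The study profiled frozen liver by PRO-cap, also named ChRO-CAP in the labels, a chromatin run-on assay that sequences the capped 5′ ends of RNA still being transcribed. Old samples came from 4 mice aged 22 to 25 months, 2 females and 2 males, and young samples from 4 mice aged 2 to 4 months, 2 females and 2 males. The mice were C57/BL6J, a strain the labels name beside the young animals, and all ate standard chow without restriction. The old mice came from the National Institute on Aging colony and the young from Jackson Laboratories, so age and supplier cannot be told apart. Each age is represented by pooled lists with 1 value per interval, so no spread between animals could be computed. The names of the larger lists carry a mark used elsewhere for females, so whether male libraries entered their values is uncertain. Whole liver mixes hepatocytes with immune and other cells, and more starts per cell and more cells using a start cannot be told apart. The lists hold no expression values, so the tissue label could not be checked against liver markers.

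Rad51b encodes a protein that acts in the repair of DNA breaks by homologous recombination, in which an intact copy of the sequence serves as the template. Nsmce2, also called MMS21, encodes the SUMO ligase subunit of the SMC5/6 complex, a ring-shaped ATPase that holds DNA strands together and helps to resolve recombination intermediates. Its catalytic SP-RING domain lies at the C-terminal end of the protein.

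The coding exons beyond the intervals are shown first, because they are what a transcript begun at these positions and running in the direction of the gene would pass. Sequences were read from GENCODE M21 transcripts (GRCm38, the assembly of mm10), plus strand, 5′ to 3′. Capitals mark ATG codons in the annotated reading frame, searched on the strand of the gene only. The exon numbers are those of the principal transcripts Rad51b-202 and Nsmce2-201 unless another is named. In Rad51b these are exon 8 at chr12:79657824-79657920, exon 9 at chr12:79767071-79767174, exon 10 at chr12:79803190-79803268 and the coding part of exon 11 at chr12:79813942-79813955. The shorter transcript Rad51b-201 ends its coding sequence instead in its own exon 8 at chr12:79507709-79507726.
Rad51b exon 8: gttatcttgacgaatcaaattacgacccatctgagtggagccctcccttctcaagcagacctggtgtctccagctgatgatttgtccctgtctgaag
Rad51b exon 9: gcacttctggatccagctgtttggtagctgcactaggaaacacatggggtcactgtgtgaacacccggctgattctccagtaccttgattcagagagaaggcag
Rad51b exon 10: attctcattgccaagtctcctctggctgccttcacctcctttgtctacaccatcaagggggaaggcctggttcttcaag
Rad51b exon 11, coding part: gccacgaaagacca
Rad51b-201 exon 8, coding part: gttacatttcaaccgatc

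In Nsmce2 the exons are exon 5 at chr15:59591697-59591797, exon 6 at chr15:59592138-59592244 and the coding part of exon 7 at chr15:59601340-59601454. The transcript Nsmce2-203 carries 1 further coding exon before these, at chr15:59496777-59496854, which is its exon 5.
Nsmce2-203 exon 5: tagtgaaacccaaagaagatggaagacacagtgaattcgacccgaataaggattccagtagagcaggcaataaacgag
Nsmce2 exon 5: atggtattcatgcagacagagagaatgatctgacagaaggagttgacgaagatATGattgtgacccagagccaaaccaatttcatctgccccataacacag
Nsmce2 exon 6: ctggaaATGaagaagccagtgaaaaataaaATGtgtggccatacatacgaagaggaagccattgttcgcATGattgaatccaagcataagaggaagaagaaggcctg
Nsmce2 exon 7, coding part: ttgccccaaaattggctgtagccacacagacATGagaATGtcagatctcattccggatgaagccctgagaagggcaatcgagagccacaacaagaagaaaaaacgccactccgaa

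Rad51b (ENSMUSG00000059060.15) lies on the plus strand of chromosome 12 from 79297282 to 79814690 and spans 517409 bp. It held 3 intervals of the larger old list and 4 of the larger young list. Among 21951 protein-coding genes, 2.77% held an old-list interval, 1.38% a young-list interval and 0.146%, or 32 genes, at least 1 of each. Rad51b was the only 1 of these 32 with at least 3 intervals of each age. Nsmce2 (ENSMUSG00000059586.10) lies on the plus strand of chromosome 15 from 59374247 to 59601684 and spans 227438 bp. It held 5 old-list intervals and 1 young-list interval, and the only stricter-list interval of the pair.

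**Figure D1:**
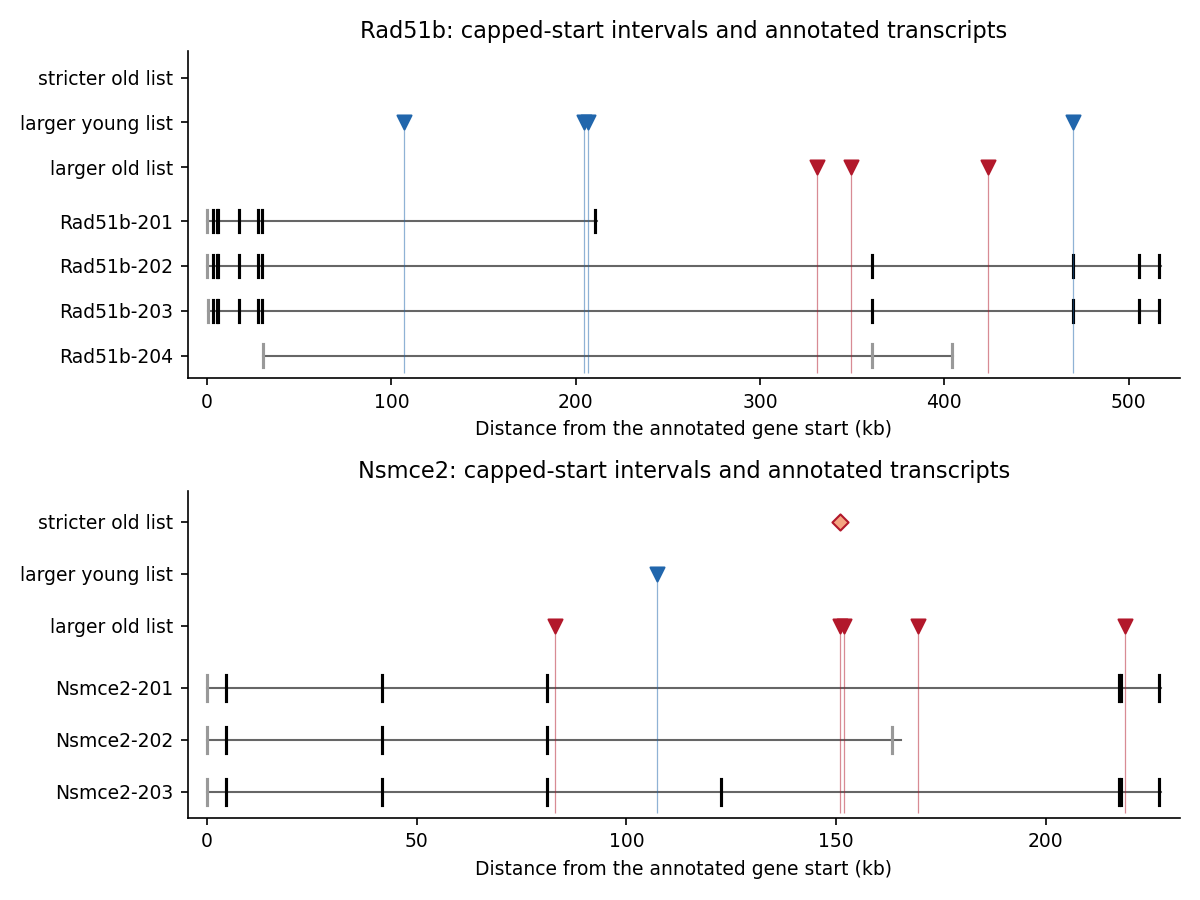
Positions of the intervals along Rad51b (top) and Nsmce2 (bottom), in kb from the annotated gene start. Triangles mark intervals of the larger lists (old red, young blue) and the diamond the stricter old list. Vertical ticks on each transcript mark exons (coding black, non-coding grey; tick width not to scale). In Rad51b the 3 old-list intervals sit together between 3 young-list intervals upstream and 1 downstream, and in Nsmce2 the young-list interval sits between the first and second old-list intervals.

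Along Rad51b the ages formed blocks. From the start of the gene came 3 young-list intervals at 107, 204 and 206 kb, then 3 old-list intervals at 331, 349 and 424 kb, and then the last young-list interval at 469.6 kb. The annotation divides the gene at the end of the shorter transcript Rad51b-201, at 211 kb. That transcript contained 3 of the young-list intervals and 0 of the old-list intervals, whereas 3 old-list intervals and 1 young-list interval lay beyond its end. Only the longer coding transcripts Rad51b-202 and Rad51b-203 ran through all 7 intervals. The non-coding transcript Rad51b-204 ran across the division and contained 3 young-list and 2 old-list intervals. With 7 intervals and 1 pooled list per age, this order is a description. Runs of 1 age also occurred in the genes most like Rad51b, as given below.

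All 7 Rad51b intervals were intronic and none touched another annotated gene. Intron 7 held 5 of them, 3 of the young and 2 of the old list. This intron spans 330419 bp, or 63.9% of the gene, and only 66 of 20448 protein-coding genes (0.323%) had a principal transcript with an intron as long. Intron 8, of 109150 bp, held the others, 1 of each age. The last young-list interval ended 124 bp before exon 9, whose sequence is given above. Of the young-list intervals clear of the exons of their host gene, 27 of 351 (7.69%) came within 150 bp of an exon, and the median gap was 3018 bp. The remaining Rad51b intervals were 3930 to 76753 bp from an exon of the gene.

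The reads behind each interval were recovered from the deposited fold, which the authors gave as 1 value per interval. The form of the fold was assumed, not stated by the authors: the reads of each age were taken as multiplied by a constant, with 1 added, before division. Under this form each fold corresponded to 1 pair of whole read numbers, 1 for each age, and all read numbers, ratios and counting intervals rest on it. A read ratio is the reads of the age of the list over those of the other age, scaled by the relative value of 1 read. The 95% Clopper-Pearson interval that follows each ratio reflects counting alone. With 0 reads at the opposite age the ratio was computed against 3 reads and is a lower bound at that floor. The lower limits of the 95% counting intervals of these 4 ratios were smaller, from 25.9 to 48.4.

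The young-list intervals of Rad51b rested on very different depths. The first, at chr12:79404157-79404306, had 262 reads from young liver against 12 from old, a ratio of 20.8 (11.7 to 40.8). The next, at chr12:79501550-79501699, had 103 and 0 reads, a floor value of 32.7 in favour of young liver. Its neighbour 2080 bp further, at chr12:79503630-79503779, had 257 and 10 reads, a ratio of 24.5 (13.1 to 51.7). This closely spaced pair lies just before the last exon of Rad51b-201, so both fall at the downstream end of the shorter transcript.

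The interval beside exon 9, at chr12:79766798-79766947, was the deepest of the gene. Young liver gave 652 reads here and old liver 42, a ratio of 14.8 (10.8 to 20.7). Of the young-list intervals, 93.4% had fewer reads. Its 42 old-liver reads were also the most from the opposite age at any of the 13 larger-list intervals.

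The old-list intervals of Rad51b lay between the closely spaced young-list pair and the young-list interval beside exon 9. The first old-list interval, at chr12:79628108-79628257, had 411 reads from old liver against 20 from young, a ratio of 21.6 (13.8 to 35.7). The second, at chr12:79646588-79646737, had 155 and 12 reads, a ratio of 13.6 (7.54 to 26.8). It was the only larger-list interval of the pair of genes whose counting interval reached below 10. The third, at chr12:79720782-79720931, had 93 and 0 reads, a floor value of 32.5 in favour of old liver. It lies in intron 8, between exons 8 and 9.

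In Nsmce2 the old-list intervals lay between 83.1 and 219 kb from the gene start, and the single young-list interval fell at 107 kb. All 6 were intronic, with no other annotated gene under them. In the principal transcript Nsmce2-201, intron 4 of 136230 bp (59.9% of the gene) held 5 of the 6, the young-list interval among them. Nsmce2-203 divides the same stretch by its extra coding exon, leaving the first old-list and the young-list interval before that exon and 3 old-list intervals after it. Intron 6, between the last coding exons, held the remaining old-list interval. The shorter transcript Nsmce2-202 contained 3 of the old-list intervals and the young-list interval, and 2 old-list intervals lay beyond its end.

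The most read-rich Nsmce2 starts were a pair with 410 old-liver reads each. The first of the pair, at chr15:59525049-59525198, had 5 young-liver reads, a ratio of 86.1 (36.6 to 266.5). The stricter old list held an interval at chr15:59525113-59525262 that overlapped it by 86 bp. The second, at chr15:59593201-59593350 in intron 6, had 17 young-liver reads and a ratio of 25.3 (15.6 to 43.9). Both exceeded the reads of 85.3% of the old-list intervals.

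The other old-list intervals of Nsmce2 were shallower. At chr15:59526025-59526174, 976 bp from the interval that overlaps the stricter list, old liver gave 109 reads and young liver 0, a floor value of 38.1. At chr15:59543720-59543869 there were 172 and 0 reads, a floor value of 60.2 in favour of old liver. At chr15:59457225-59457374, 1759 bp beyond exon 4, there were 145 and 7 reads, a ratio of 21.7 (10.3 to 55.04). The young-list interval, at chr15:59481422-59481571, had 196 young-liver and 5 old-liver reads, a ratio of 37.3 (15.7 to 116.3) in favour of young liver. It lay 24197 bp from the nearest old-list interval, the closest approach of opposite ages in this gene.

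**Figure D2:**
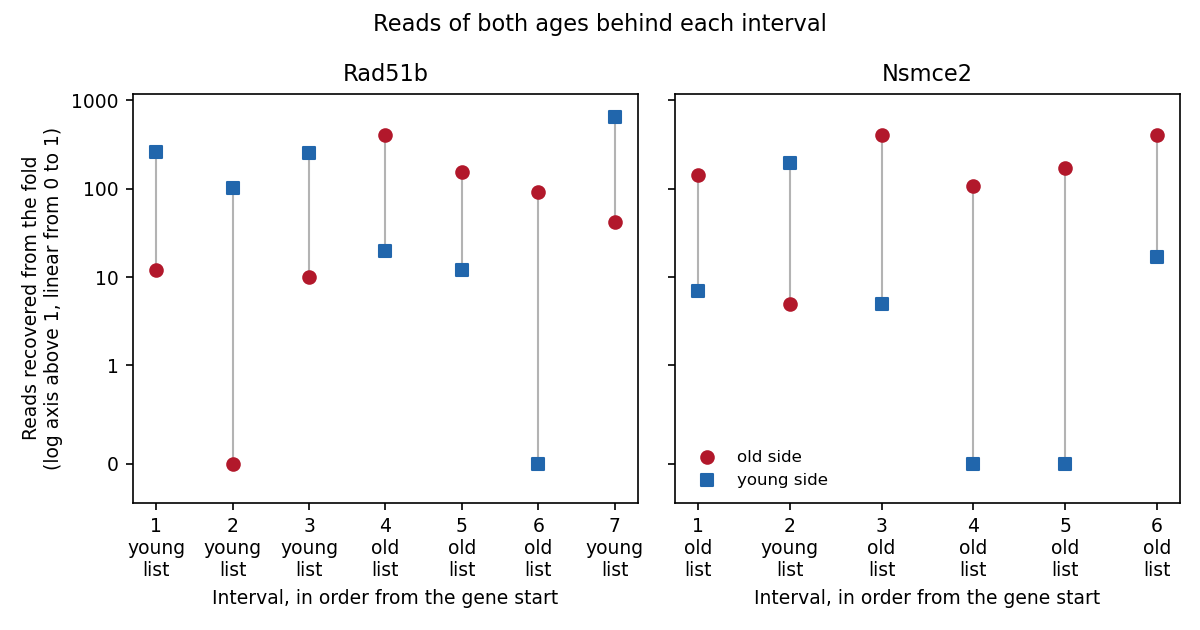
Reads recovered for the old side (red circles) and young side (blue squares) at each larger-list interval of Rad51b (left) and Nsmce2 (right), in order from the gene start; the axis is logarithmic above 1 read and linear below. Grey lines join the sides of 1 interval. At 4 of the 13 intervals the other age had 0 reads, and at the others it had 5 to 42.

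Across both genes, 3 of 8 old-list intervals and 1 of 5 young-list intervals had 0 reads at the other age. The same held for 36.0% of all old-list and 25.2% of all young-list intervals. The reads of the age of the list ran from 93 to 652 over the 13 intervals. The medians of the full lists were 159.5 (old) and 162 (young), so the members lie on either side of them. The lowest deposited folds of the lists were 10.01 (old) and 10.07 (young), and the lowest among the members was 13.4, in Rad51b. Intervals under a fold of 10 are not in the lists and were not analysed here.

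The starts of both genes lay far from annotated promoters. For Rad51b the nearest GENCODE transcript start was 203877 to 296551 bp away from the old-list intervals and 76878 to 176351 bp from the young-list intervals. The old-list intervals of Nsmce2 were 25315 to 93467 bp from a start and its young-list interval 107209 bp. Medians over the full lists were 13119 bp (old) and 12873 bp (young). All 7 Rad51b intervals were farther from a GENCODE start than at least 96.0% of the intervals of their list. In Nsmce2 this share was at least 96.1% for all but the last old-list interval, where it was 78.7%. Long introns leave room for such distances, and the part of gene length in them was not tested. With RefSeq starts added, the distances in Rad51b were 75065 to 167739 bp for old-list intervals, where the median fell from 278071 to 149259 bp. For the young-list intervals they were then 29049 to 176351 bp, the smallest belonging to the interval beside exon 9. The shares of the lists given above use GENCODE starts only.

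Positions within the gene depended on which transcript was used. On a scale where 0 is the first base of the gene and 1 its last, the first 3 young-list intervals of Rad51b lay at 0.207, 0.395 and 0.399, before the middle. In Rad51b-201 they lay at 0.506, 0.967 and 0.977. In Nsmce2 the first old-list and the young-list interval lay at 0.365 and 0.472 of the gene, and at 0.502 and 0.648 of Nsmce2-202. Thus each of the 13 intervals was beyond the middle of at least 1 annotated coding transcript, 2 of them just beyond it. Over the full lists, 50 of 915 old-list and 23 of 400 young-list intervals in protein-coding genes lay before the middle of every host gene. Of these, 41 and 14 lay beyond the middle of an annotated transcript of a host. The members placed before the middle of their gene belong to those 50 and 23.

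The share of coding sequence still ahead of the starts was at most 28.0% in Rad51b-202. At 5 of the Rad51b intervals, 294 of 1050 coding bases (28.0%) lay downstream, and at the last old-list and last young-list intervals 197 bases (18.8%). In Rad51b-201, 18 of 774 coding bases lay downstream of the first 3 young-list intervals. In Nsmce2-201, 323 of 741 coding bases (43.6%) lay downstream of 5 intervals and 115 bases (15.5%) downstream of the last. The 417 coding bases of the shorter Nsmce2-202 end in exon 4, so none lay downstream of any interval. Over the full lists the median share in the longest coding sequence of the host gene was 43.9% for old-list and 54.5% for young-list intervals, with quartiles of 18.7% and 76.3% (old) and 27.9% and 82.9% (young). By the longest coding sequence, Nsmce2-203, the Nsmce2 values were 49.0% for the first old-list and the young-list interval, 39.4% for the next 3 and 14.0% for the last.

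**Figure D3:**
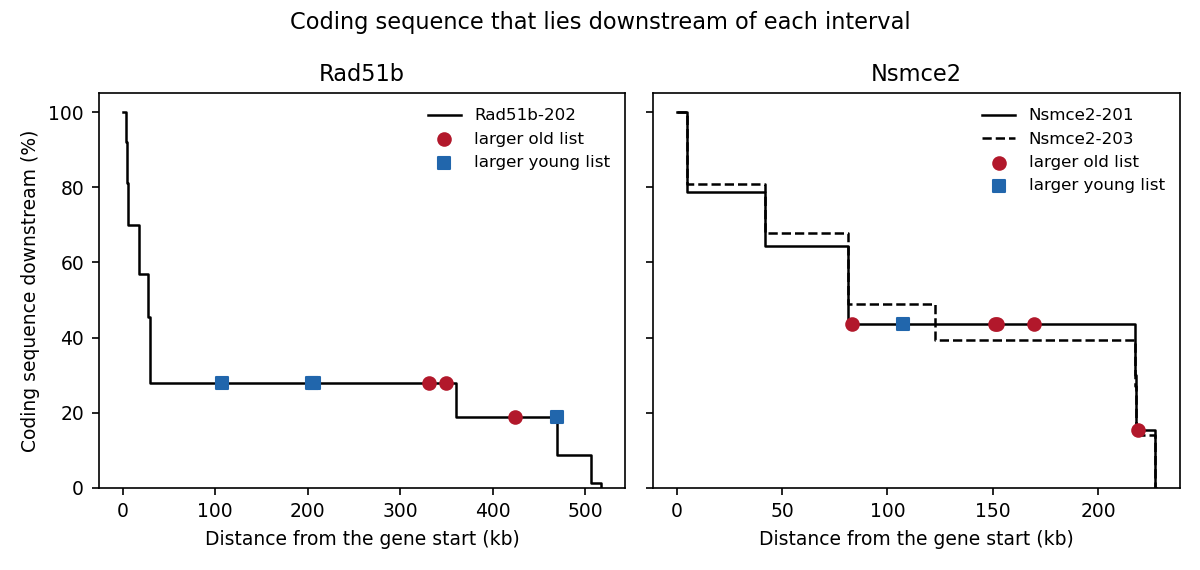
Percent of the coding sequence that lies downstream of each position, against the distance from the gene start in kb, for Rad51b (left) and Nsmce2 (right). Lines step down at each coding exon of the transcript named (solid principal, dashed Nsmce2-203); points are the larger-list intervals on the principal transcript. In Rad51b all 7 points lie at 28.0% or 18.8%, on the long flat stretches between exons 7 and 9.

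The downstream coding exons printed above differed between the genes in their ATG codons. The spliced coding sequence of Rad51b-202 has 5 in-frame ATG codons, the initiation codon included. None of them lay downstream of any of the 7 intervals, as the absence of capitals in exons 8 to 11 shows. Nsmce2-201 has 11, of which 6 lay downstream of 5 intervals, starting in exon 5, and 2 downstream of the last. Among 850 old-list intervals with coding sequence downstream, 62 (7.29%) had no in-frame ATG there, and among 368 young-list intervals 25 (6.79%). The letters describe the annotated exons. No data here bear on whether RNA begun at these starts is spliced or translated, and the lists do not give its direction.

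Both genes are long. Among the 830 protein-coding genes at least as long as Nsmce2, 12.9% held an old-list interval, 7.83% a young-list interval and 2.17% both. These shares stand above those over all genes; the part of length in the members' counts was not tested. Per 100 kb, Rad51b held 0.580 old-list and 0.773 young-list intervals. The medians over host genes were 1.57 for the 608 of the old list and 1.23 for the 304 of the young list. Nsmce2 held 2.198 old-list intervals per 100 kb, more than 61.8% of old-list hosts, and 0.440 young-list intervals. Every host holds an interval by definition, so short hosts have high densities by construction. Densities were not compared among genes of like length. By number rather than density, 20 of 608 hosts had at least 5 old-list intervals as Nsmce2 had, and 8 of 304 at least 4 young-list intervals as Rad51b had.

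**Figure D4:**
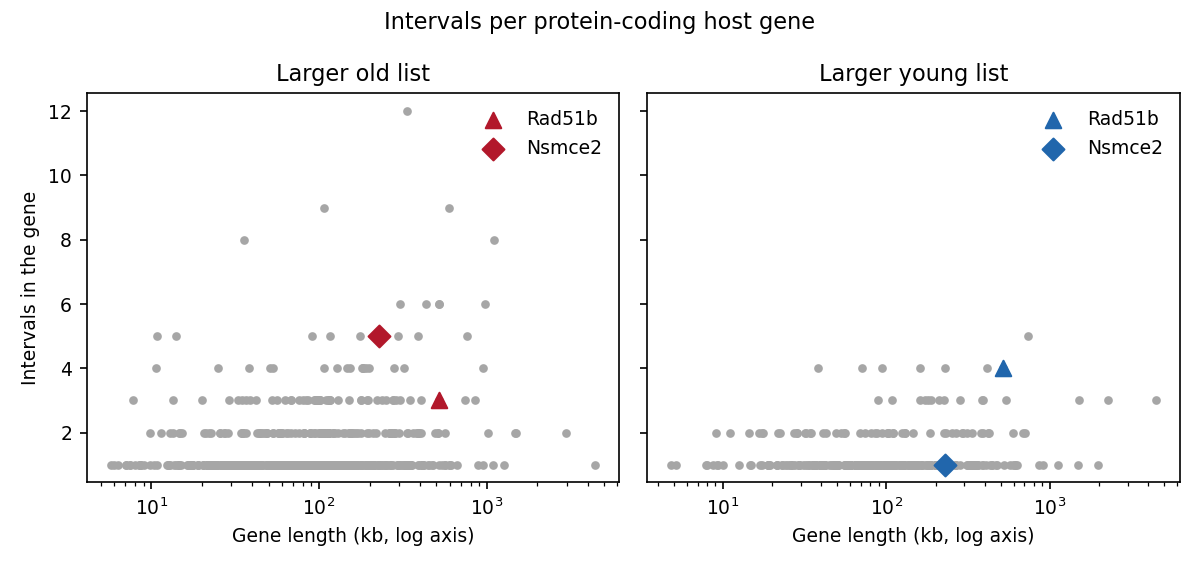
Number of intervals per protein-coding host gene against gene length (kb, log axis), for the larger old list (left, 608 genes) and the larger young list (right, 304 genes). Grey points are other host genes; the triangle is Rad51b and the diamond Nsmce2. Rad51b holds 3 and 4 intervals, and Nsmce2 5 and 1.

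Ranked by the smaller of the old and young counts, with ties ordered by their sum, the genes most like Rad51b were the forkhead factor gene Foxp1 (9 old, 2 young), Arhgef3 (3 and 2), the phosphodiesterase gene Pde4d (2 and 3), the sphingomyelin synthase gene Sgms1 (2 and 2) and the methionine sulfoxide reductase gene Msra (12 and 1). Msra, Nsmce2 and all genes ranked below them tied at a smaller count of 1, and the sum alone placed Msra ahead. This likeness is over 2 pooled lists. Runs of 1 age like those of Rad51b occurred in Arhgef3, where 2 young-list intervals came before 3 old-list intervals. In Pde4d the 2 old-list intervals lay together between young-list intervals. In Sgms1 the ages alternated. Opposite ages came as close as 781 bp in Arhgef3 and 3677 bp in Sgms1. The closest approach was 46016 bp in Rad51b, between the third old-list and the last young-list interval. Over the 32 genes the median was 17206 bp, with a range of 761 to 620597 bp. The approach was wider than in 68.75% of these genes for Rad51b and 59.4% for Nsmce2 (24197 bp). Both thus lay above the median, Rad51b further than Nsmce2. The median length of the 32 genes was 278000.5 bp, and the part of length in these distances was not tested.

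Intervals in other genes of DNA repair were counted beside those in all genes. Of 166 genes in 11 lists covering recombination, SMC complexes, SUMO conjugation, end joining, excision and mismatch repair, the Fanconi pathway and the checkpoint, 6 held old-list and 3 young-list intervals. Without Rad51b and Nsmce2 these were 4 of 164 (2.44%) and 1 of 164 (0.610%), beside 2.77% and 1.38% of all protein-coding genes. The old-list share was thus near that of all genes, and the young-list share rested on 1 gene. The remaining 8 genes of the SMC5/6 list held none. The median length of the 166 genes was 30415 bp, so most are far shorter than both members.

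Each of the other old-list hosts had 1 interval with 0 young-liver reads. Rad50 and Mre11a encode subunits of the MRN complex that senses and trims DNA breaks. They had 236 and 145 old-liver reads, with floor values of 82.6 and 50.7 in favour of old liver. The Mre11a interval lay in the gene body but outside its principal transcript. Ncapg2, a condensin II subunit gene, had 279 reads in an exon and a floor value of 97.6. Sae1, which encodes a subunit of the SUMO-activating enzyme, had 146 old-liver reads and a floor value of 51.1 in favour of old liver. The only further young-list host was Wapl, which encodes the factor that releases cohesin from DNA, with 146 young-liver and 7 old-liver reads and a ratio of 19.9 (9.40 to 50.3). The Rad50 and Ncapg2 intervals were also in the stricter old list.

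The neighbours of the members were examined in the same way. Within 500 kb on either side of Rad51b, 0 of 14 protein-coding genes held an interval of either larger list. Around Nsmce2, 1 of 10 did. Over all protein-coding genes the shares were 2.77% (old) and 1.38% (young), so nothing particular to these surroundings can be read from so few genes. This was Mtss1, which encodes a membrane-bending actin regulator, with 168 old-liver and 16 young-liver reads and a ratio of 11.02 (6.59 to 19.7). Its interval lay 367290 bp from Nsmce2.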

How the data were processed

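PRO-cap was run on liver of 4 old and 4 young mice. Per the submitters' processing notes, the tools included BWA 0.7.10, HOMER, cutadapt 2.10, bedtools 2.27.1-65 and SAMtools 1.1, with mm10 and GRCm38 listed beside hg19. Coordinates are 1-based mm10. No source used here states the peak caller, the pooling or what makes a start cryptic. The larger lists carry the names OF and YF although the labels tie them to both sexes, so which libraries were pooled is uncertain. Each deposited row of the larger lists has a fold (a ratio of 1 age over the other, at least 10). The stricter lists have a deposited score of 0 in every row and gave positions only. Stricter is a label used here, and what was required of their rows is not stated. Their rows do not all match the larger lists. By centre, Dip2b held 1 interval of the stricter old list and 0 of the larger old list. Every interval spans 150 bp, and the strand column is plus throughout and was not used. The depth of the libraries is unknown.

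Folds of all 976 old and 425 young intervals solved to 1 pair of whole reads within 1e-07 reads, trying up to 1000 reads on the other side, under an assumed form, as (reads × value of 1 read + 1) over the same for the other age. The value of 1 read was 8.55 (old) and 8.15 (young) in units of the added constant, and ratios use 8.55 over 8.15, or 1.05, for old over young. The solver was first run on folds simulated under the same assumed form, which cannot check that form. Centres were assigned to GENCODE M21 genes. Python 3.11.15, pandas 2.3.3 and SciPy 1.17.1 were used.

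The members and lists were chosen with earlier results of these data known. Named genes were the members, every host gene of the repair lists, every host within 500 kb of a member, and the 5 genes ranked first by the smaller count of intervals, then by the sum of both counts. Of 167 listed repair genes 166 matched by symbol. No genome sequence was used here, so the bases, GC content and motifs of the intervals were not analysed. Alternatives were other fold thresholds, overlap rules, transcripts and start annotations.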

Additional observations from a re-analysis of the deposited data

How the results depend on the processing

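Interval counts moved by at most 1.5 times when any base was counted or intervals within 500 bp were joined. The same held with a fold of at least 20 and with a lower limit or floor value of at least 10. It also held with the longest coding transcript. Kept to overlap with the stricter lists, the counts were 0 (old) and 0 (young) for Rad51b and 1 and 0 for Nsmce2. With starts of protein-coding transcripts only, median distances were 349099 bp (Rad51b old), 205101 bp (Rad51b young) and 104556 bp (Nsmce2 old). With RefSeq starts as well they were 149259 bp and 125574 bp for Rad51b, old and young. In the shortest coding transcript holding the centre, median relative positions were 0.937 (Rad51b young), 0.912 (Nsmce2 old) and 0.648 (Nsmce2 young). With the principal transcript, 43.6% of the coding sequence lay downstream at the median for both ages in Nsmce2. RefSeq starts, the shortest and the principal transcript were chosen after seeing the data. For the 4 intervals with 0 reads at the other age the deposited fold was 797 to 1472, since it depends on the added constant. Their floor values were 32.5 to 60.2. GC content over wider windows was not run. Leaving out a replicate was not possible because the lists are pooled. No paired analysis was possible because the lists hold no values per sample.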
